A study of Mus musculus with 13 samples.

Results

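The EGR and KLF transcription factors followed here are the early growth response factors Egr1, Egr2 and Egr3, their corepressor Nab2, and the Krüppel-like factors Klf2, Klf3, Klf4, Klf6, Klf10 and Klf13. These 10 members were chosen by name from the gene names that the scanner files give to the non-control probes, which gave 10 genes with 15 probes and 24 spots on each array, out of 41174 non-control probes and 20891 genes compared. All 10 genes passed the filter on dim signal, as did 14 of the 15 probes. The left-out probe was the dimmer of a pair for Klf13. RNA of bone marrow-derived macrophages was hybridised to 13 one-colour Agilent whole-genome arrays. The cells were grown for 6 days in 30% L929-conditioned medium from the marrow of male C57BL/6 mice aged 12 to 16 weeks. Every mouse carried Hdac3 with loxP sites around exons 4 to 7. Control cells carried the floxed gene alone, and knockout (KO) cells also had Cre under the lysozyme M promoter, which acts in myeloid cells, so Cre and the loss of HDAC3 cannot be told apart. For 24 hours the cells then received IL-4, which drives alternative macrophage activation, at 10 ng/mL, or a vehicle of 0.1% bovine serum albumin. The groups were control vehicle (n = 4, arrays 1 to 4), KO vehicle (n = 3, arrays 5 to 7), control IL-4 (n = 3, arrays 9, 10 and 12) and KO IL-4 (n = 3, arrays 13 to 15). The labels do not say whether the arrays of a group came from separate mice or cultures, and the p-values therefore reflect the spread between these arrays alone, which may be technical.

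EGR proteins are zinc finger transcription factors of the immediate-early class: their genes are switched on within minutes of a signal, in part through serum response factor bound to CArG boxes, and their proteins bind a GC-rich element. NAB proteins bind EGR factors and restrain them, and Nab2 is itself a target of EGR factors, which closes a feedback loop. KLF proteins use a related set of zinc fingers to bind GC-rich and CACCC-type elements. In macrophages Egr2 and Klf4 are known as genes induced by IL-4 through STAT6, Klf2 as a restraint on inflammatory activation, and Egr1 as a factor of monocyte differentiation. HDAC3 is a histone deacetylase that works in the NCoR and SMRT corepressor complexes.

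Levels are given as the log2 of the processed spot signal minus the array's 75th percentile, so that a level of 0 is the 75th percentile of that array and a difference of 1 is a doubling. Levels of different genes come from different probes and are not compared. The signal of Hdac3 itself was lower in both KO groups, with a mean level of -2.01 in control vehicle against -3.41 in KO vehicle arrays, and of -1.99 in control IL-4 against -3.51 in KO IL-4 arrays. All 9 macrophage markers examined were well above background on every array. The share of spots well above background ran from 56.2% (control vehicle array 4) to 83.2%, and no spot was saturated. The arrays lay on 4 slides. On every slide a group took the same array position, and position and group cannot be told apart.

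Loss of HDAC3 without IL-4 moved 5 of the genes. Egr2, Nab2, Klf4 and Klf10 rose and Egr1 fell in KO vehicle against control vehicle cells, which is 5 of 10 members by limma at an adjusted p under 0.05, against 4.68% of all genes (2.42% higher and 2.26% lower). With slide as a fixed block 2 members passed against 3.57% of all genes, and with median scaling 2 against 2.51%. There were also 2 without control vehicle array 2 (3.25% of all genes) or KO vehicle array 5 or 6 (2.2% and 2.16%), and 3 without control vehicle array 1, 3 or 4 (3.29%, 3.13% and 3.2%). Under IL-4, HDAC3 loss lowered Egr1 and no other member passed, which is 1 of 10 against 3.64% of all genes (2.03% higher and 1.6% lower). It was 2 without control vehicle array 1 (3.06% of all genes), where Klf13, a gene near the background, was the added member. With median scaling it was 0 (2.03% of all genes). IL-4 raised Egr2, Klf4 and Nab2 and lowered Klf6 in control cells, 4 of 10 members against 5.64% of all genes (2.76% higher and 2.88% lower). With slide as a fixed block there were 2 against 4.23%, and with median scaling 2 against 3.38%. In KO cells IL-4 raised Egr2 and Klf4 and lowered Egr3, 3 of 10 members against 2.17% of all genes (1.16% higher and 1.01% lower), and 1 passed without KO vehicle array 7 or KO IL-4 array 14 (1.23% and 1.5% of all genes). The median log2 difference of the 10 members in these comparisons was 0.255, 0.082, 0.182 and 0.071, beside 0.024, -0.021, 0.01 and -0.044 over all genes. Comparisons that share a group of arrays are not independent of each other. In bulk RNA, fewer cells of a type and less RNA per cell cannot be told apart.

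**Figure D1:**
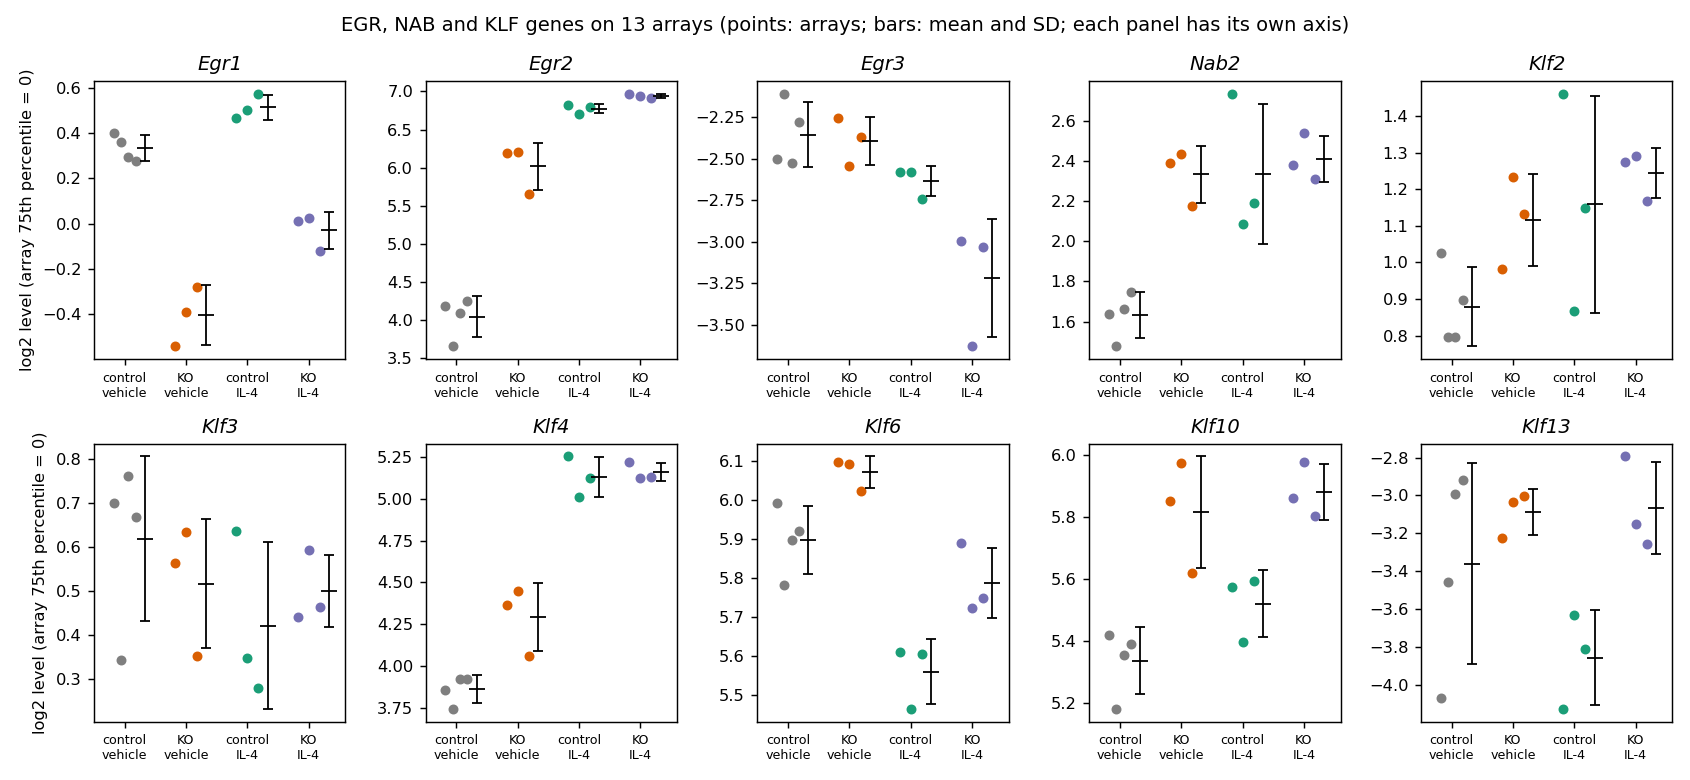
Log2 level of each of the 10 genes (vertical axes, relative to the array's 75th percentile, each panel with its own scale) in the 4 groups; points are arrays, bars are the group mean and SD. Egr2 runs from 3.65 to 4.25 in control vehicle and from 5.65 to 6.21 in KO vehicle arrays and lies above 6.7 on all IL-4 arrays, while Egr1 is lower on every KO array than on every control array.

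Counted by separation instead of by the test, the KO and control arrays did not overlap for 6 of 10 members in vehicle and for 6 of 10 under IL-4, against 16.9% and 17.8% of all genes. The IL-4 and vehicle arrays did not overlap for 6 of 10 members in control cells and 5 of 10 in KO cells, against 16.7% and 18.3% of all genes. Egr1, Egr2 and Klf6 were separated in all 4 comparisons. The members separated by genotype under IL-4 include Egr3 and Klf13, which were not well above background on every array there. Egr3 also counts in both IL-4 comparisons, while its other probe overlapped in all 4. Of the called differences, each belonged to a pair of groups that did not overlap.

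**Figure D2:**
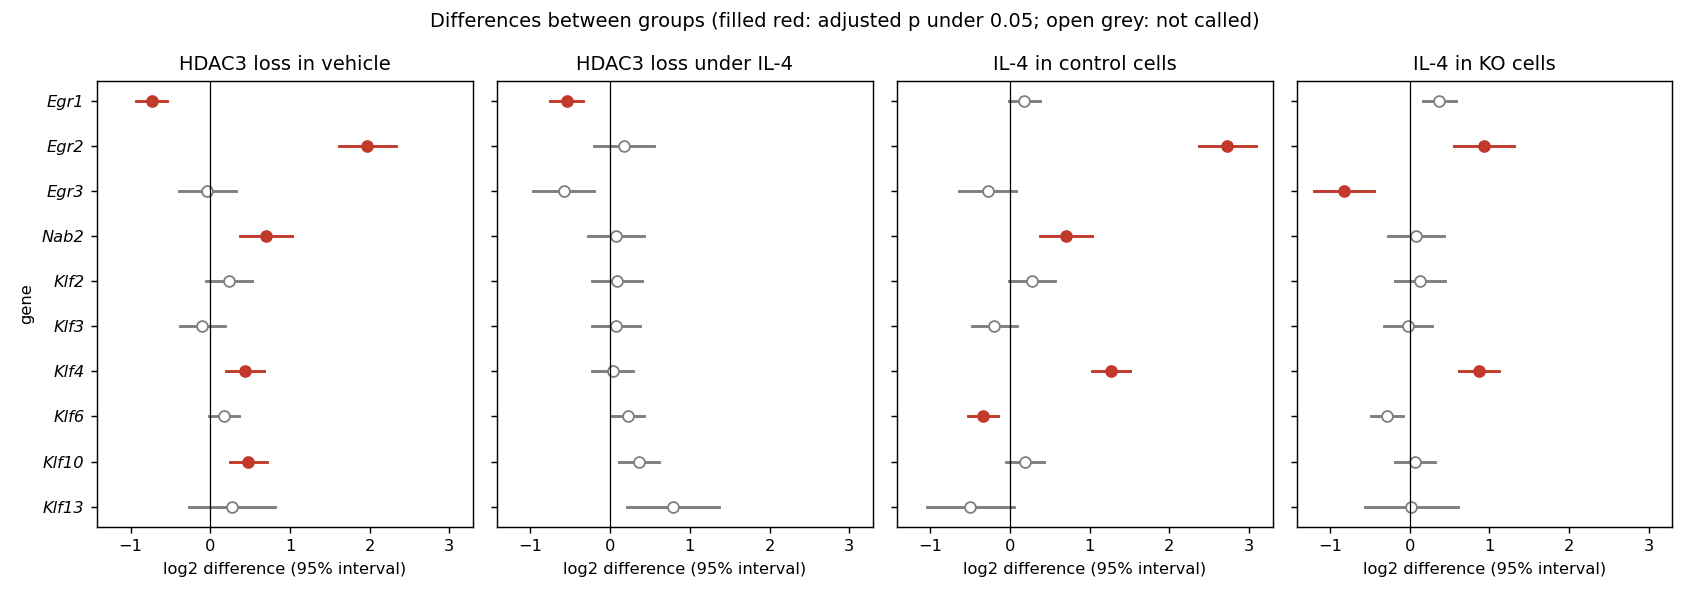
Log2 difference between groups (horizontal axes) for the 10 genes in the 4 comparisons, with the 95% interval from limma; filled red points passed at an adjusted p under 0.05 and open grey points did not. Egr2 stands at 1.97 for HDAC3 loss in vehicle and 0.17 for HDAC3 loss under IL-4, and Klf4 at 1.27 and 0.87 for IL-4 in control and KO cells.

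Egr2, a zinc finger factor that IL-4 induces in macrophages, had the largest differences of the set. Its level was 4.19, 3.65, 4.09 and 4.25 on the control vehicle arrays and 6.19, 6.21 and 5.65 on the KO vehicle arrays. With IL-4 it was 6.82, 6.70 and 6.79 on control arrays and 6.97, 6.94 and 6.92 on KO arrays. The 4 groups did not overlap anywhere: control cells without IL-4 were lowest, KO cells without IL-4 lay well above them, and both IL-4 groups were higher again and close together. HDAC3 loss in vehicle raised Egr2 by 1.97 on the log2 scale (SE 0.162, 3.92-fold, limma adjusted p = 6.42e-05). IL-4 raised it by 2.73 in control cells (SE 0.162, 6.63-fold, limma adjusted p = 3.21e-06) and by 0.93 in KO cells (SE 0.173, 1.9-fold, limma adjusted p = 0.0152). Under IL-4 the genotypes differed by 0.17 (95% interval -0.21 to 0.55, limma adjusted p = 0.72).

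Within slides 1, 2 and 3 the vehicle difference in Egr2 was 1.998, 2.553 and 1.567. The IL-4 difference was 2.63, 3.05 and 2.55 in control cells within slides 1, 2 and 4, and 0.78, 0.74 and 1.27 in KO cells within slides 1 to 3. The rise in vehicle and the IL-4 rise in control cells passed in all 24 alternative analyses. The IL-4 rise in KO cells did not pass without KO vehicle array 7 (0.75, adjusted p = 0.0575), KO IL-4 array 14 (adjusted p = 0.0544) or KO IL-4 array 15 (adjusted p = 0.0519), or when limma was fitted on those groups alone (adjusted p = 0.114).

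Egr2 was also the member measured most often, since the array prints its 60-base probe (chr10:67004758-67004817, plus strand, mm9, at position 2786 of the target transcript) in 10 spots. The mean signal of these spots before scaling was 6823 to 10268 on control vehicle arrays, 30888 to 46978 on KO vehicle arrays, 69496 to 77694 on control IL-4 arrays and 74076 to 93761 on KO IL-4 arrays. The spots of an array had a coefficient of variation of 2.35% to 6.47%. None was saturated. On the KO IL-4 arrays 60 to 73 probes were brighter than Egr2 against 1436 to 1982 on control vehicle arrays.

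**Figure D3:**
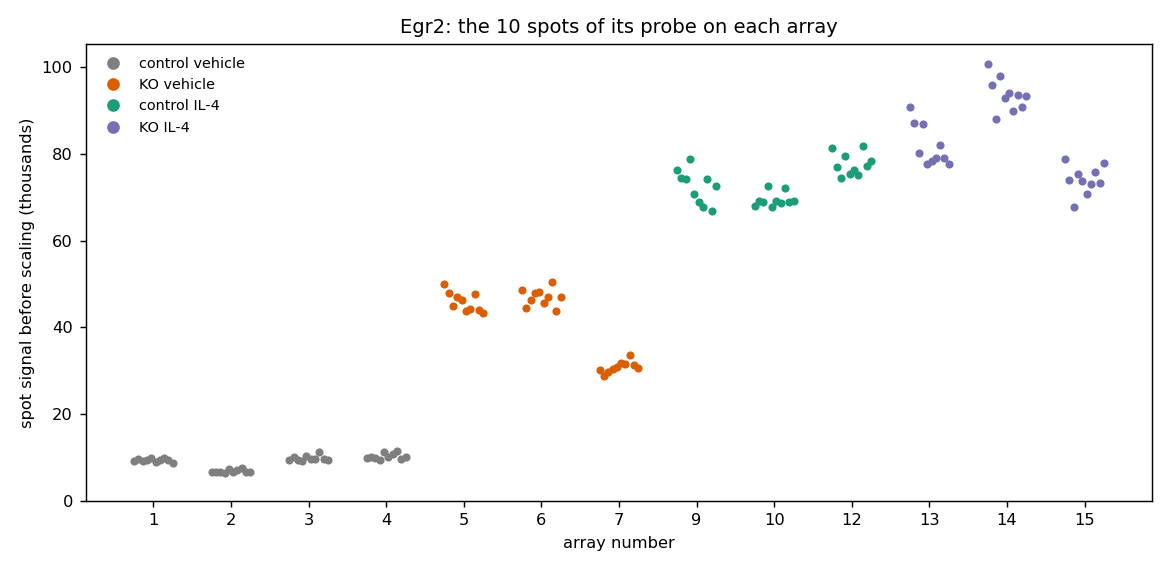
Processed signal of the 10 Egr2 spots on each of the 13 arrays (vertical axis in units of 1000, before scaling, starting at 0; horizontal axis the array number), coloured by group. The spots of 1 array lie close together; KO vehicle array 7 (mean 30888) lies below the other KO vehicle arrays (45932 and 46978) and above all control vehicle arrays.

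Nab2, the corepressor that binds EGR factors, rose in 2 of the comparisons in which Egr2 rose, with smaller differences. Its level was 1.64, 1.48, 1.67 and 1.75 on the control vehicle arrays and 2.39, 2.44 and 2.17 on the KO vehicle arrays. On IL-4 it was 2.73, 2.08 and 2.19 in control cells and 2.38, 2.54 and 2.31 in KO cells. Control vehicle arrays were the low group, and the other groups overlapped with each other. HDAC3 loss in vehicle raised Nab2 by 0.70 (SE 0.15, 1.63-fold, limma adjusted p = 0.0201) and IL-4 raised it by 0.70 in control cells (SE 0.15, 1.63-fold, limma adjusted p = 0.0159). The difference was 0.074 under IL-4 between genotypes (95% interval -0.28 to 0.42) and 0.076 for IL-4 in KO cells (95% interval -0.27 to 0.43), and neither passed.

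Both Nab2 calls were close to the threshold. Blocking on slide gave an adjusted p of 0.0564 for HDAC3 loss in vehicle and 0.0547 for IL-4 in control cells, and with median scaling 0.111 and 0.0652. The vehicle call was lost without control vehicle array 1 (0.0508) or 2 (0.0607) or KO vehicle array 5 (0.0977) or 6 (0.108). The IL-4 call was lost without control vehicle array 2 (0.0511) and when only the compared groups were fitted (0.0743). Within slides the differences were 0.75, 0.96 and 0.51 for HDAC3 loss in vehicle and 1.09, 0.61 and 0.44 for IL-4 in control cells.

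Klf4, a factor that acts beside STAT6 in alternative activation, rose with IL-4 in both genotypes. Its level was 3.86, 3.74, 3.92 and 3.92 in control vehicle and 4.37, 4.45 and 4.06 in KO vehicle cells. With IL-4 it was 5.26, 5.01 and 5.13 in control and 5.22, 5.13 and 5.13 in KO cells. All IL-4 arrays lay above all vehicle arrays, KO vehicle arrays lay above control vehicle arrays, and the IL-4 groups overlapped. IL-4 raised Klf4 by 1.27 in control cells (SE 0.109, 2.42-fold, limma adjusted p = 3.12e-05) and by 0.87 in KO cells (SE 0.116, 1.83-fold, limma adjusted p = 0.0019). Within slides these differences were 1.40, 1.27 and 1.21 in control cells and 0.86, 0.68 and 1.07 in KO cells. The call in KO cells was lost only when those groups alone were fitted (adjusted p = 0.0702).

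HDAC3 loss in vehicle raised Klf4 by 0.43 (SE 0.109, 1.35-fold, limma adjusted p = 0.045). That call held in 9 of 24 alternatives. It was lost after blocking on slide (0.45, adjusted p = 0.0937), with median scaling (0.262) and in further settings not listed here. Leaving out any of 10 arrays also ended it: control vehicle arrays 1 to 4 (0.103, 0.119, 0.0841 and 0.0813), KO vehicle arrays 5 and 6 (0.209 and 0.231), control IL-4 arrays 10 and 12 (0.0547 and 0.0729) and KO IL-4 arrays 13 and 15 (0.0611 and 0.0645). Within slides 1, 2 and 3 the difference was 0.51, 0.71 and 0.14. Under IL-4 the genotypes differed by 0.031 in Klf4 (95% interval -0.22 to 0.28, limma adjusted p = 0.937).

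Over the 13 arrays the level of Egr2 had a Pearson correlation of 0.935 with Klf4 and 0.901 with Nab2, and Klf4 of 0.795 with Nab2. The arrays share their groups, so this describes the group pattern again. The summed signal of the endothelial markers moved with the same groups. The log2 of the summed signal of the 3 (Vwf, Cdh5 and Tek) ran from 2.17 to 2.46 in control vehicle, 3.21 to 3.42 in KO vehicle, 3.49 to 3.64 in control IL-4 and 3.81 to 4.18 in KO IL-4 arrays. Vwf ran from 1.90 to 4.14 and Cdh5 from -1.79 to -0.34 over all arrays, both well above background on all 13, and Tek was well above background on 8. Vwf thus makes up most of the sum, and the levels of Cdh5 and Tek by group are not given here. The part of these markers in the differences of Egr2, Nab2 and Klf4 was not tested.

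Because Egr2, Nab2 and Klf4 all rose with HDAC3 loss in vehicle and with IL-4 in control cells, comparisons that share the control vehicle arrays, their promoter sequence is shown, as the 250 bases before a RefSeq transcript start of GRCm38.p6, on the strand of the gene. Capitals mark a CArG box in Egr2 and matches to the EGR element GCGNGGGCG (here on the other strand) in Klf4, and the Nab2 window holds neither. For Egr2 the first window that holds a CArG box was chosen. The window of its first start (chr10:67535249-67535498) holds none.
Egr2 (chr10:67537316-67537565, plus strand): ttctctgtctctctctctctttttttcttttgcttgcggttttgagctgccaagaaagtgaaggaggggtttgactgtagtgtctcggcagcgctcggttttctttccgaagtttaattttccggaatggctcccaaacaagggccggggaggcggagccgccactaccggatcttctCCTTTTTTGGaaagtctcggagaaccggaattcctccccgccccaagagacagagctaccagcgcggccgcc
Nab2 (chr10:127666704-127666953, minus strand): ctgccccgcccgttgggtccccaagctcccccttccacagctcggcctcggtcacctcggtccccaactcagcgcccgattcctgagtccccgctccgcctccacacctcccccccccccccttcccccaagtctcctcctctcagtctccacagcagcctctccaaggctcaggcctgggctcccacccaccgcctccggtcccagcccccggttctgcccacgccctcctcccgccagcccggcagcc
Klf4 (chr4:55532476-55532725, minus strand): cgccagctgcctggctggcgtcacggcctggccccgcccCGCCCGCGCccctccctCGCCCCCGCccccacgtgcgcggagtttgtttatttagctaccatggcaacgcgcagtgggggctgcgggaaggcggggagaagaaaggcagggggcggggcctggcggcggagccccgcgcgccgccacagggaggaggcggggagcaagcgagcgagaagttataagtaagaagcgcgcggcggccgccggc

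The table of promoters held 7 of the 10 members in 11 windows, and Egr1, Egr3 and Klf10 were not in it. On both strands, a CArG box was found in 1.47% of all 32851 windows and, among the members, in Egr2 alone, in 4 of the windows of its 5 starts. The window shown overlaps no other Egr2 window, and its box begins 72 bases before the start. The other windows with a box overlap one another and share a single box. The EGR element GCGNGGGCG was found in 4.7% of all windows and in those of Klf2, Klf3 and Klf4, which are 3 of the 11 member windows. In Klf4 it begins 211 and 194 bases before the start and overlaps CACCC-type matches. The KLF-type element CCNCNCCC was in 45.93% of all windows and in 9 of the 11 member windows, with at least 1 window in each of the 7 members. Both elements are rich in G and C, and so are the member windows. Their GC content ran from 54.0% to 78.4% (71.2% in Klf2, 78.4% in Klf3 and 74.0% in Klf4), against a median of 52.4% over all windows. The part of GC content in these matches was not tested. The STAT6-type element (TTC, any 4 bases, then GAA) was in 5.85% of all windows and in none of the members'. These are matches of letters in short windows, and no binding was measured.

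Egr1, the founding member of its family and an immediate-early gene, moved opposite to Egr2 with HDAC3 loss in vehicle. Its level was 0.40, 0.36, 0.29 and 0.28 in control vehicle and -0.54, -0.39 and -0.28 in KO vehicle cells. With IL-4 it was 0.47, 0.50 and 0.57 in control and 0.011, 0.023 and -0.12 in KO cells. Every KO array was below every control array, and within each genotype the IL-4 arrays lay above the vehicle arrays. Egr1 fell by 0.74 on the log2 scale with HDAC3 loss in vehicle (SE 0.089, 0.6-fold, limma adjusted p = 0.000614) and by 0.54 under IL-4 (SE 0.095, 0.686-fold, limma adjusted p = 0.00815). Its difference with IL-4 was 0.18 in control cells (95% interval -0.015 to 0.37, limma adjusted p = 0.394) and 0.37 in KO cells (95% interval 0.17 to 0.58, limma adjusted p = 0.0797), and neither passed.

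Egr1 was the single member called for HDAC3 loss both with and without IL-4. Within slides its difference was -0.94, -0.75 and -0.57 in vehicle and -0.46 and -0.48 under IL-4. The vehicle call held in all 24 alternatives. The call under IL-4 held in 22 of 24, and was lost with median scaling (adjusted p = 0.0735) and when only the IL-4 groups were fitted (adjusted p = 0.162).

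Egr3, the third EGR factor, was dim and its probes disagreed. Its brighter probe (chr14:70481979-70482038, plus strand, mm9, transcript position 3432) read -2.50, -2.11, -2.53 and -2.28 in control vehicle and -2.26, -2.54 and -2.37 in KO vehicle cells. With IL-4 it read -2.58, -2.58 and -2.74 in control and -2.99, -3.63 and -3.03 in KO cells, where it was well above background on 2 of 3 arrays. The KO IL-4 arrays were the lowest of all, and the vehicle groups overlapped. By this probe Egr3 fell by 0.83 with IL-4 in KO cells (SE 0.174, 0.564-fold, limma adjusted p = 0.0311). Under IL-4 the KO arrays were lower by 0.58 without passing (adjusted p = 0.112), though the difference passed with quantile normalization (0.0432) and on the authors' values (0.0409).

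The other Egr3 probe lies nearer the 5′ end (chr14:70478827-70478886, plus strand, mm9, transcript position 278) and did not follow the first. It read -2.90, -2.48 and -3.23 in KO vehicle and -2.45, -2.75 and -2.70 in KO IL-4 cells, groups that overlap, with a difference of 0.24 (SE 0.218, limma adjusted p = 0.728). With the mean of both probes the IL-4 difference in KO cells was -0.29 (adjusted p = 0.532). The call by the brighter probe was also lost after blocking on slide (0.0879), without the filter on dim probes (0.0639), with trend and robust variance (0.0818) and on the compared groups alone (0.22). It was lost too without KO vehicle array 5 (0.131), 6 (0.0599) or 7 (0.118), control IL-4 array 10 (0.0503) or KO IL-4 array 14 (-0.62, adjusted p = 0.071).

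Klf10, also known as a TGF-beta-inducible early gene, was higher on KO arrays with and without IL-4. Its level was 5.42, 5.18, 5.36 and 5.39 in control vehicle and 5.85, 5.97 and 5.62 in KO vehicle cells. With IL-4 it was 5.57, 5.40 and 5.59 in control and 5.86, 5.98 and 5.80 in KO cells. The genotypes did not overlap at either treatment, and the IL-4 groups overlapped with the vehicle groups of the same genotype. HDAC3 loss in vehicle raised Klf10 by 0.48 (SE 0.108, 1.39-fold, limma adjusted p = 0.0271). Under IL-4 the difference was 0.36 (95% interval 0.11 to 0.61, limma adjusted p = 0.143), which passed with normexp (0.0293) and with trend and robust variance (0.0282). IL-4 differences were 0.18 in control and 0.066 in KO cells (adjusted p = 0.513 and 0.865).

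The vehicle call of Klf10 held in 15 of 24 alternatives. It was lost after blocking on slide (0.50, adjusted p = 0.0551), with median scaling (0.227), without the filter on dim probes (0.0589) and on the compared groups alone (0.0719). Without control vehicle arrays 2, 3 or 4 the adjusted p was 0.075, 0.0648 and 0.0562, and without KO vehicle arrays 5 or 6 it was 0.126 and 0.155. Within slides 1, 2 and 3 the difference was 0.43, 0.79 and 0.26.

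Klf6, a widely expressed KLF factor linked to inflammatory gene expression in macrophages, was the single member that IL-4 lowered in control cells. Its level was 5.99, 5.78, 5.90 and 5.92 in control vehicle and 5.61, 5.46 and 5.61 in control IL-4 cells. In KO cells it was 6.10, 6.09 and 6.02 with vehicle and 5.89, 5.72 and 5.75 with IL-4. Within each genotype every IL-4 array was below every vehicle array, and at each treatment every KO array was above every control array. Klf6 fell by 0.34 with IL-4 in control cells (SE 0.086, 0.791-fold, limma adjusted p = 0.042), and within slides 1, 2 and 4 the difference was -0.38, -0.32 and -0.32. In KO cells the difference was -0.28 (95% interval -0.49 to -0.082, limma adjusted p = 0.183). It passed there with quantile normalization (0.036), normexp (0.0318), the authors' values (0.0384) and trend and robust variance (0.0301). HDAC3 loss gave 0.17 in vehicle and 0.23 under IL-4 (adjusted p = 0.437 and 0.265).

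A second Klf6 probe, fitted with all probes, fell by 0.52 with IL-4 in control cells (SE 0.119, limma adjusted p = 0.0266) and had the same sign as the first in all 4 comparisons. The call by the brighter probe nevertheless held in 10 of 24 alternatives. It was lost after blocking on slide (0.0636), with median scaling (0.342), without the filter on dim probes (0.0926) and on the compared groups alone (0.119). It was lost as well without control vehicle arrays 1, 3 or 4 (0.121, 0.1 and 0.108), KO vehicle arrays 5, 6 or 7 (0.0698, 0.068 and 0.0571), control IL-4 arrays 9, 10 or 12 (0.0739, 0.154 and 0.105) or KO IL-4 array 15 (0.0589).

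Klf2, Klf3 and Klf13 passed in no comparison with limma, and among their differences only that of Klf13 under IL-4 had an unadjusted p under 0.05 (0.012). Klf2, which restrains inflammatory activation of myeloid cells, ran from 0.80 to 1.03 in control vehicle, 0.98 to 1.23 in KO vehicle, 0.87 to 1.46 in control IL-4 and 1.17 to 1.29 in KO IL-4 arrays. KO IL-4 arrays were above all control vehicle arrays, and each of the 4 tested pairs of groups overlapped. Its 4 differences lay between 0.086 and 0.28 (the lowest limma adjusted p was 0.363). Klf3, a KLF repressor that recruits CtBP, ran from 0.28 to 0.76 over all arrays with all groups overlapping, and its differences lay between -0.20 and 0.078. With array weights its IL-4 difference in control cells passed (-0.34, adjusted p = 0.0294).

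The second Klf2 probe is shown because its readings set slide 1 apart and did not separate the groups. It has a GC content of 78.3%, against 43.3% for the probe used, and lies at transcript position 524 (chr8:74843761-74843820, plus strand, mm9).
Klf2 probe at position 524: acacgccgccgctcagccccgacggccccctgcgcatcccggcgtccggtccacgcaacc
Its level ran from -0.58 to -0.14 on the 4 arrays of slide 1, 0.43 to 0.72 on slide 2, 0.56 to 1.11 on slide 3 and 0.28 to 0.38 on slide 4. The arrays of slide 1, which hold 1 of each group, lay below all others. The probe used for Klf2 ran from 0.98 to 1.46 on slide 1 and 0.80 to 1.29 on slide 2, with overlap.

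**Figure D4:**
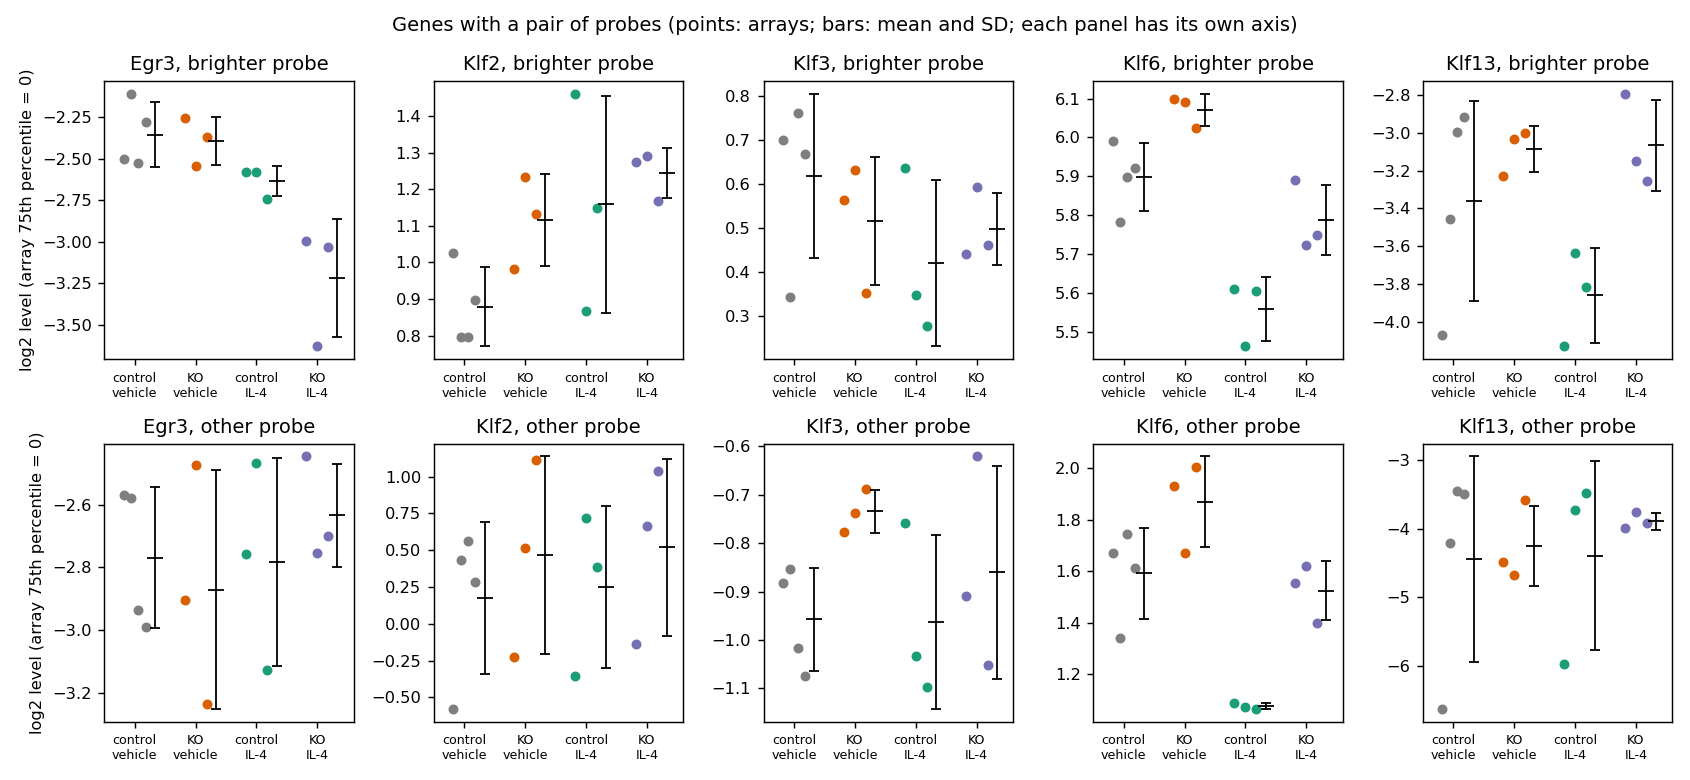
Log2 level (vertical axes, relative to the array's 75th percentile, each panel with its own scale) by group for the 5 genes with a pair of probes, the brighter probe above and the other below; points are arrays, bars are mean and SD. Both Klf6 probes are lowest in control IL-4 arrays, while the Egr3 probes differ in KO IL-4 arrays and the second Klf2 probe spreads from -0.58 to 1.11 across slides.

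Klf13, a KLF factor that can act as a repressor, was near the background, well above it on 3 of 4 control vehicle, 3 of 3 KO vehicle, 2 of 3 control IL-4 and 2 of 3 KO IL-4 arrays. It ran from -4.07 to -2.92, -3.23 to -3.00, -4.13 to -3.63 and -3.26 to -2.79 in these groups. Under IL-4 the KO arrays lay above the control arrays, with a difference of 0.79 (SE 0.265, limma adjusted p = 0.162). Without control vehicle array 1, where it read -4.07, the adjusted p of that difference was 0.0489. It stayed in the fit because it was well above background on every KO vehicle array.

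Whether HDAC3 loss altered the response to IL-4 was tested as the difference between the IL-4 responses of KO and control cells. None of the 10 members passed with limma at an adjusted p under 0.05, where 0.00479% of all genes passed (1 gene, Ptgs1). At an unadjusted p under 0.05 there were 4 members, Egr2, Egr3, Nab2 and Klf4, beside 3.88% of all genes. For Egr2 the IL-4 response of KO cells minus that of control cells was -1.80 on the log2 scale (SE 0.237, 95% interval -2.32 to -1.28, unadjusted p = 8.51e-06, limma adjusted p = 0.0889). Klf4 gave -0.40 (95% interval -0.75 to -0.053) and Nab2 -0.63 (95% interval -1.11 to -0.15), both with an adjusted p of 0.999. Egr3 gave -0.55 (95% interval -1.07 to -0.024, adjusted p = 0.999).

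The Egr2 value lay near the threshold and passed in 6 of 23 alternatives. The adjusted p was 0.024 with quantile normalization, 0.00414 with normexp, 0.0175 on the authors' values, 0.00165 with trend and robust variance and 0.0109 with array weights. Without KO vehicle array 7 it was 0.0188, with a difference of -1.98. Over all alternatives the Egr2 difference stayed between -1.98 and -1.67 and the adjusted p between 0.00165 and 0.419.

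The genes most like the members in pattern were named by their correlation over the 13 arrays, for the 3 members with the smallest p of the test across all 4 groups. For Egr2 these were Clec7a, the beta-glucan receptor dectin-1 (Pearson r = 0.992), Atp6v0d2, a subunit of the vacuolar proton pump (0.989), and Mgst1, a microsomal glutathione transferase (0.983). Clec7a had group means of 4.32, 5.70, 6.35 and 6.70 in control vehicle, KO vehicle, control IL-4 and KO IL-4 cells, the same order as Egr2. For Klf4 they included Smap2, an Arf GTPase-activating protein gene (0.993), and Nfil3, a basic leucine zipper repressor (0.986). Nfil3 had means of 0.97, 2.25, 4.33 and 4.48 in the same order of groups. For Egr1 they were the class I MHC genes H2-Q5 (0.978) and H2-Q10 (0.966) and the purinergic receptor gene P2ry14 (0.961), which had means of 1.17, -0.83, 1.55 and -0.36. H2-Q genes are near-identical, so which of them those probes report is uncertain.

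Of 15 further EGR, NAB, KLF and SP genes that were tested, 1 fell with HDAC3 loss in vehicle, Klf8 (-0.96, SE 0.176, limma adjusted p = 0.00848), against 4.68% of all genes, and 1 with IL-4 in KO cells, the corepressor gene Nab1 (-0.59, SE 0.13, limma adjusted p = 0.0399), against 2.17%. None was called by limma for HDAC3 loss under IL-4 or for IL-4 in control cells, where 3.64% and 5.64% of all genes were. At an unadjusted p under 0.05 there were 4 and 4 of the 15, against 14.9% and 14.7% of all genes. The median differences of these 15 genes ran from -0.17 to 0.021 over the 4 comparisons.

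Other immediate-early genes moved in both directions. Of 24 tested, 2 rose with HDAC3 loss in vehicle, the survival gene Ier3 (0.99) and the antiproliferative gene Btg1 (0.60). Under IL-4, 3 were higher in KO cells: Fos, a subunit of AP-1 (0.73), Btg1 (0.61) and Elk3, a ternary complex factor (0.48). IL-4 raised 4 and lowered 4 in control cells, with Ier3 at 2.15, Fos at -0.89, Csrnp1 at 1.29 and Elk3 at -0.57 (limma adjusted p = 1.07e-05, 0.000199, 0.00128 and 0.00188). In KO cells it raised Ier3 (1.25) and lowered Dusp6, an ERK phosphatase gene (-0.83), and Fosb (-0.72). The medians of the list were 0.091, 0.056, -0.002 and 0.087 for HDAC3 loss without and with IL-4 and for IL-4 in control and KO cells. Over all genes the medians were 0.024, -0.021, 0.01 and -0.044 in the same order. The shares of all genes called by limma were 4.68%, 3.64%, 5.64% and 2.17%.

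Of 20 genes for corepressor and degradation partners of EGR and KLF proteins, none was called for HDAC3 loss in vehicle by limma, against 4.68% of all genes, and 5 had an unadjusted p under 0.05, against 13.6% of all genes. Under IL-4, 1 of the 20 was called, Fbxw7, a ubiquitin ligase subunit that was higher in KO cells (0.46, adjusted p = 0.0313). Of all genes 3.64% were called there. IL-4 in control cells lowered 1, the ubiquitin ligase gene Wwp1 (-0.55, adjusted p = 0.00741). It raised 1, Smurf1, another ubiquitin ligase gene (0.44, adjusted p = 0.0373). Of all genes 2.88% fell and 2.76% rose there. In KO cells IL-4 lowered 1, Nab1, as above, and 2.17% of all genes were called.

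Of 22 genes known as EGR or KLF targets, 4 rose and 2 fell with HDAC3 loss in vehicle. The smallest adjusted p-values belonged to the chemokine genes Ccl2 (3.42) and Ccl5 (-2.51), the hyaluronan receptor gene Cd44 (0.68) and Plau, urokinase (1.29). Under IL-4, 4 rose and 1 fell, with Ccl2 at 3.25, Ccl5 at -2.36, Arg1, arginase, at 1.52 and Plau at 1.55. IL-4 in control cells raised 2 and lowered 2, Arg1 (4.02) and Lgals3, galectin-3 (0.37), against S1pr1, a sphingosine phosphate receptor gene (-1.03), and Tnf (-0.67). In KO cells it raised Arg1 (5.09) and lowered S1pr1 (-0.89). Of all genes 2.42% rose and 2.26% fell with HDAC3 loss in vehicle, and 2.03% and 1.6% under IL-4. With IL-4, 2.76% rose and 2.88% fell in control cells, and 1.16% and 1.01% in KO cells. The list's medians were 0.121, 0.133, 0.009 and 0.063, beside 0.024, -0.021, 0.01 and -0.044 over all genes. Whether any of these genes depends on the members in these cells was not measured.

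Alternative activation genes, the setting in which Egr2 and Klf4 are known, rose with IL-4 in both genotypes. Of 18 tested, 13 rose in control and 12 in KO cells and none fell, with medians of 2.28 and 1.70. Of all genes IL-4 raised 2.76% and lowered 2.88% in control cells, and raised 1.16% and lowered 1.01% in KO cells. The medians over all genes were 0.01 and -0.044. With HDAC3 loss 5 rose and 3 fell in vehicle, and 4 rose and 1 fell under IL-4, with medians of 0.148 and 0.328. Of all genes 2.42% rose and 2.26% fell in vehicle, and 2.03% rose and 1.6% fell under IL-4. The medians over all genes were 0.024 and -0.021 there. In vehicle the smallest adjusted p-values belonged to Clec7a (1.38), Ccl24, an eotaxin gene (2.37), Cish, a cytokine signalling inhibitor (2.56), and Mrc1, the mannose receptor gene (0.56).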

How the data were processed

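The scanner files deposited by the authors hold linear spot intensity from 1 Cy3 channel, made, per the file headers, with Agilent Feature Extraction 10.5.1.1 and mm9 probe coordinates; the submitters' processing notes name version 9.53 and limma without a version. The authors' value table holds linear intensity; how it was normalized is not given in the sources used here.

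Values are log2(gProcessedSignal) minus each array's 75th percentile. Control and outlier spots were left out and spots of a probe averaged. A probe was kept if 1 or more groups had it well above background on all arrays, and the brightest kept probe stands for its gene (20891 genes). All 13 arrays were fitted in limma 3.58.1 (R 4.3.3, lmFit and eBayes, two-sided), with Benjamini-Hochberg adjustment over all genes. Scripts were tested on simulated data. Precision is limited by 3 or 4 arrays a group.

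The members, lists and tests were chosen with earlier results of these data known. Named genes are the members, up to 4 called genes per list and comparison by adjusted p, and 3 genes by likeness; Ptgs1 and the sequences shown were chosen after values were seen. Alternatives were quantile normalization, normexp (offset 50), median scaling, the authors' values, no filter, probe means, trend and robust variance, slide as a block (fixed or random), array weights, only the compared groups, and leaving out each array. Some items these rules take are not reported here.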

Additional observations from a re-analysis of the deposited data

How the results depend on the processing

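Of 1190 values of members under an alternative, 1087 kept their sign and their side of the threshold, 65 lost a call, 16 gained one and 22 changed sign, none of these called. The median over all genes stayed within 0.1 of 0 under the alternatives.

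Shares of all genes called in the same setting stand in brackets. Members called for HDAC3 loss in vehicle numbered 5 (4.68%). There were 2 with median scaling (2.51%) or slide as a fixed block (3.57%) and 3 without the filter on dim probes (2.35%) or with only the groups compared (4.25%). For HDAC3 loss under IL-4 (1 member, 3.64%) there were 2 with quantile normalization (4.15%), normexp (5.3%), trend and robust variance (5.08%) or the authors' values (4.1%), and 0 with median scaling (2.03%) or only the groups compared (0.426%). For IL-4 in control cells (4 members, 5.64%) there were 2 with median scaling (3.38%), slide as a fixed block (4.23%) or only the groups compared (4.31%), and 5 with array weights (12.7%). For IL-4 in KO cells (3 members, 2.17%) there were 4 with quantile normalization (2.7%), normexp (3.85%) or the authors' values (2.83%), 2 without the filter on dim probes (1.15%), with the mean of a gene's probes (1.82%) or with slide as a fixed block (1.75%), and 0 with only the groups compared (0.55%). For the genotype difference in the IL-4 response (0 members, 0.00479%) there was 1 with quantile normalization or the authors' values (0.00957% each), normexp (0.0383%), trend and robust variance (0.0479%) or array weights (0.0191%). Leaving out 1 array gave 2 to 5 members for HDAC3 loss in vehicle, 1 to 2 under IL-4, 3 to 4 for IL-4 in control cells, 1 to 3 in KO cells and 0 to 1 for the difference of responses, where the shares of all genes were 2.16% to 5.28%, 2.13% to 3.46%, 3.62% to 6.63%, 1.23% to 2.33% and 0.00479% to 0.0191%. A lone sample never arose, since each group kept at least 2 arrays. With fewer arrays or more genes tested the test has less to work with, and the differences themselves moved as well. For Egr2 with IL-4 in KO cells the difference was 0.93 on all arrays and 0.75 without KO vehicle array 7. Why a call was lost was not tested for any setting.

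The uncalled values that changed sign were small. For HDAC3 loss under IL-4, Klf4 gave -0.011 with quantile normalization and -0.025 on the authors' values. Leaving out 1 array there gave -0.028 to 0.093 for Klf4, -0.052 to 0.273 for Nab2 and -0.059 to 0.237 for Klf2, each below 0 only without control IL-4 array 10. For HDAC3 loss in vehicle, Egr3 gave 0.003 with normexp and -0.103 to 0.045 without 1 array, and Klf3 gave 0.06 with the mean of its probes. For IL-4 in KO cells, Klf10 gave -0.005 with quantile normalization, -0.019 on the authors' values and -0.021 with array weights, Nab2 -0.011 with array weights and Klf3 0.07 with median scaling. Without 1 array the ranges there were -0.032 to 0.146 for Klf10, -0.004 to 0.128 for Nab2, -0.099 to 0.041 for Klf3 and -0.117 to 0.114 for Klf13.

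The labels give no pairing of samples between groups, because their array numbers are not shared between groups. Slide, which holds arrays of several groups, was the block instead, and the calls it ended stand beside each gene. Signal over background limits Egr3 and Klf13, whose probes were not well above it on every array. With slide as a random block the correlation within slides was 0.0367.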
